A study of Homo sapiens with 9 samples.

Results

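The BCL2 family decides whether a cell keeps its mitochondria sealed or opens them to caspase activation, and 10 of its genes were examined in the RNA of U251 cells, an established human glioblastoma line, after knockdown of the splicing regulator PTBP1. The genes were BCL2, BCL2L1 and MCL1, which are anti-apoptotic, the effectors BAX and BAK1, and the BH3-only genes BCL2L11, PMAIP1, BBC3, BID and BIK. They were chosen as the rows of the expression table that carry these symbols, 10 of 22295 rows, and all 10 were among the 15551 rows with a mean of at least 0.1 FPKM (the fragments of a gene divided by its transcript length and by the mapped total of the library) that were tested. The rule uses the symbols alone and no measured value, although earlier results of these data were known when it was set.

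Expression was measured by RNA-seq in 9 libraries, 3 from each of 3 groups. The sh-Luci-3d cells carried a lentivirus with a control hairpin against luciferase for 3 days, the sh-Ptbp1-3d cells a lentivirus with a hairpin against PTBP1 for 3 days, and the sh-Ptbp1-7d cells the same PTBP1 hairpin for 7 days. These groups are called the day 3 control, the day 3 knockdown and the day 7 knockdown below. The virus also carried the red fluorescent marker M-cherry, and a single PTBP1 hairpin was used, the strongest of those the study tried. All groups were given neuronal induction medium with forskolin, dorsomorphin and the N2 and B27 supplements, begun between infection and day 3, so the 7-day cells had spent longer in it. No control library of 7 days was analysed here, and in every comparison with the 7-day group the knockdown, the added days and the medium cannot be told apart. The labels do not say whether the 3 libraries of a group came from separate cultures, and p-values measure the spread between these libraries, which may be technical. In bulk RNA of this kind, fewer cells of one state and less RNA per cell cannot be told apart.

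BAX and BAK1 proteins form the pores in the outer mitochondrial membrane that release cytochrome c. The anti-apoptotic proteins BCL2, BCL-xL (from BCL2L1) and MCL1 bind and hold back the effectors and the BH3-only proteins. BH3-only proteins carry stress signals. BIM (from BCL2L11) and PUMA (from BBC3) bind all the main anti-apoptotic proteins, NOXA (from PMAIP1) binds mainly MCL1, BID links death receptors to mitochondria after cleavage by caspase-8, and BIK acts at the endoplasmic reticulum. MCL1 is a short-lived protein that is largely controlled by its turnover, so mRNA levels do not give protein levels. Postmitotic neurons are known to restrain this pathway, in part through splicing: PTBP1 is known to repress a microexon of BAK1 that neurons include, which shifts the reading frame and lowers BAK1 protein.

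The BAK1 sequence is shown because it is the place in this family where the targeted regulator is known to act. An exon of 20 bases lies at chr6:33574506-33574525 on GRCh38, minus strand, and is exon 5 of 7 in 1 of the 3 BAK1 transcripts of GENCODE v29. It is printed in capitals between 20 bases of the exons on either side in that transcript.
BAK1 exon: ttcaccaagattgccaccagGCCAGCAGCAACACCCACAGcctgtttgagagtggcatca
The FPKM values are per gene, so neither the use of this exon nor the splice forms of BCL2L1, MCL1 and BCL2L11 could be read from them.

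Upstream sequences are shown for 3 members that rose together between 3 and 7 days. RefSeq promoter entries (GRCh38.p14) were held for 8 of the 10 members, MCL1 and BIK having none. The 250 bases before the start site are printed for BCL2L11 (chr2:111120664-111120913, plus strand), PMAIP1 (chr18:59899746-59899995, plus strand) and BAK1 (chr6:33580277-33580526, minus strand), with matches on either strand to any of 6 motifs in capitals. The start sites are those of RefSeq and differ from the GENCODE gene starts. The BCL2L11 window lies inside the GENCODE gene, which begins at chr2:111119378.
BCL2L11: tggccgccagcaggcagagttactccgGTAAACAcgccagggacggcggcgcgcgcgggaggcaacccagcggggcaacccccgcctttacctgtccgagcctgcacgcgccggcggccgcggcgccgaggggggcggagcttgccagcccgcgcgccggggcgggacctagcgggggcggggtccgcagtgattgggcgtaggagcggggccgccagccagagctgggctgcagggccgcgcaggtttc
PMAIP1: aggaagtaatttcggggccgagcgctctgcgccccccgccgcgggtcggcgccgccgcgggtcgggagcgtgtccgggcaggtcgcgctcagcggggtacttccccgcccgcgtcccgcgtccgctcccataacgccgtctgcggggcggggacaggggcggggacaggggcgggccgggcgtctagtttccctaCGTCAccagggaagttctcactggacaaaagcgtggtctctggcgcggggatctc
BAK1: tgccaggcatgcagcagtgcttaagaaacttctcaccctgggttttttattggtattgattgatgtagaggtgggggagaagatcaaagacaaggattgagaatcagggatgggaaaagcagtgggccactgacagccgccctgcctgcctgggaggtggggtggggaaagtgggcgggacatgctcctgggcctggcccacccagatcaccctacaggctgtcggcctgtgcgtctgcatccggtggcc
The motifs were the cAMP response element (TGACGTCA, found in 1.65% of 35116 promoters of the same length), its core alone (TGACG, 21.2%, which every full element also contains), the C/EBP-ATF element bound by ATF4 and CHOP (TGATGNAAT, 0.888%), the FOXO element (TGTTTAC, 2.98%), the interferon response element (GAAANNGAA, 6.88%) and the STAT element (TTCNNNGAA, 6.57%). BCL2L11 held 1 FOXO match, on the minus strand, beginning 223 bases before the start site. PMAIP1 held 1 match to the cAMP element core, 55 bases before it. The same core was found in windows of BCL2, BAX and BCL2L1, members that did not pass the threshold in any comparison. BAK1 held none of the 6. The GC box (GGGCGG, 42.6% of promoters) and the E-box (CACGTG, 6.34%) were searched too and are not marked. The GC box was found 3 times in the BCL2L11 window, 4 times in that of PMAIP1 and 2 times in that of BAK1, and the E-box in none of these windows. The BCL2L11 and PMAIP1 windows were 76.8% and 72.8% G and C, and that of BAK1 58.0%, against a median of 58.0% over all promoters. A match describes letters in a window and not a bound site.

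The knockdown itself was present in the libraries. PTBP1 was at 111, 112 and 124 FPKM in the day 3 control, 66.2, 64.4 and 61.0 FPKM in the day 3 knockdown and 49.7, 50.7 and 51.0 FPKM in the day 7 knockdown. The depth of the libraries is unknown, since FPKM values carry no read counts. Of 9 glioma and astroglial markers, VIM, the intermediate filament vimentin, had the highest level, with means of 4168, 4381 and 1169 FPKM in the day 3 control, the day 3 knockdown and the day 7 knockdown, and the summed level of the 9 ranged over libraries from 4470 to 4596, 4593 to 4889 and 1393 to 1514 FPKM. Of the same markers VIM, CD44 (165.6 to 62.3 FPKM) and EGFR (9.69 to 5.55 FPKM) fell between the knockdown groups. Each passed an adjusted p of 0.01 in limma in every setting tried. S100B alone of the list rose at that threshold between these groups, from 0.115 to 0.797 FPKM (limma adjusted p = 0.00202), and it missed the threshold in 4 alternative settings. SOX2 rose from 105.7 FPKM in the day 3 control to 144.8 FPKM at day 7 (limma adjusted p = 0.00184). The summed level of 7 neuronal markers ranged from 265 to 316, 335 to 357 and 159 to 166 FPKM, most of it TUBB3. TUBB3 fell from 316.9 to 118.2 FPKM between the knockdown groups and passed in every setting tried. In the same list MAP2 rose from 20.3 to 38.9 FPKM between the knockdown groups (limma adjusted p = 0.000580), and SNAP25 rose from 1.27 FPKM in the day 3 control to 4.32 FPKM at day 7 (limma adjusted p = 9.16e-05). The summed level of 8 blood and immune markers, most of it CD68, ranged from 9.58 to 11.1, 10.4 to 10.9 and 15.6 to 17.9 FPKM, and CD3E and AIF1 were listed at 0 in every library. The part of these shifts in the results on the family was not tested.

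Some libraries stood apart from their groups. In sh-Luci-3d replicate 3 the deviation of a gene from its group mean followed the G and C content of its transcripts (Spearman rho 0.76 over 11134 genes), while replicates 1 and 2 of that group had rho of -0.60 and -0.63 and the other 6 libraries lay between -0.18 and 0.29. Members rich in G and C were high in that library: BBC3, at percentile 96.6 of transcript G and C content, was at 2.38 times the mean of the other 2 control libraries, BAX, at percentile 84.1, at 1.57 times, and BAK1, at percentile 80.4, at 1.26 times. BIK, at percentile 71.7, was at 1.59 times that mean and BCL2L1, at percentile 72.3, at 1.17 times. MCL1, at percentile 38.3, was at 1.02 times that mean and BCL2L11, at percentile 40.0, at 0.841 times. In sh-Ptbp1-3d replicate 3, the neuronal genes STMN2 and DCX were at 11.5 and 2.14 FPKM and were at or near 0 in the other 8 libraries. With transcript length in place of G and C content, rho was -0.41 in sh-Ptbp1-7d replicate 3 and 0.28 and 0.30 in its companions. In sh-Luci-3d replicate 3 it was -0.38, against 0.33 and 0.30 in the other 2 control libraries. The deviations of a gene within a group sum to 0, so opposite rho values of companion libraries are not separate observations. Results that rest on one of these libraries, such as that of BID on sh-Ptbp1-7d replicate 3, are given with and without it.

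FPKM is scaled per length, so levels can be set side by side between genes. In the day 3 control the mRNA of the 10 members was mostly MCL1, with a mean level of 63.4 FPKM, BAX, with 52.3 FPKM, and BCL2L1, with 35.4 FPKM. BAK1 followed at 13.2 FPKM, then BCL2L11 at 10.5, PMAIP1 at 10.1, BID at 8.24 and BBC3 at 3.04 FPKM. BAD, a BH3-only gene outside the 10, had a mean of 58.6 FPKM, between those of MCL1 and BAX, in the same libraries. BIK and BCL2 were near the bottom of the measured range, at 0.641 and 0.320 FPKM. Neighbours in this order whose libraries overlapped were MCL1 with BAX, BCL2L11 with PMAIP1, and BIK with BCL2. At day 3 of the knockdown the order was kept except that PMAIP1 and BCL2L11, which overlapped, exchanged places. At day 7 BCL2L11 had reached the level of BAK1 (20.8 and 21.3 FPKM, libraries overlapping), BID overlapped BBC3 (5.64 and 4.65 FPKM), and BCL2 overlapped BIK. BCL2, the founding gene of the family, was the lowest or next to lowest member in every group, and the anti-apoptotic mRNA of the 3 members was nearly all that of MCL1 and BCL2L1.

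The comparison of the day 3 knockdown with the day 3 control asks what the knockdown does at an equal day. None of the 10 members passed an adjusted p of 0.05 in limma, and 0 of 10 had an unadjusted p under 0.05. In all of the 15551 genes tested 0.0322% passed that threshold, and 0.0129% passed it with a fold change above 2, so few calls were made anywhere. The median log2 fold change of the members was 0.00, beside 0.01 over all genes tested. MCL1 was the only member whose libraries did not overlap between these groups, with 63.9, 62.2 and 64.0 FPKM in the day 3 control against 67.5, 69.5 and 67.2 FPKM in the day 3 knockdown, a log2 difference of 0.10 (95% interval -0.07 to 0.28, limma adjusted p = 0.805). Such separation was found in 10.8% of all genes tested. Of the other abundant members, the log2 difference was 0.05 for BCL2L1 (95% interval -0.13 to 0.23), 0.15 for BAX (-0.22 to 0.51), -0.07 for BAK1 (-0.32 to 0.18), -0.06 for BCL2L11 (-0.27 to 0.14) and 0.10 for PMAIP1 (-0.11 to 0.31). That of BBC3, PUMA, was wide, 0.42 (-0.23 to 1.08, adjusted p = 0.791).

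The value of BBC3 rested on 1 control library. BBC3 was at 2.37, 1.80 and 4.95 FPKM in the day 3 control and at 4.28, 3.49 and 3.52 FPKM in the day 3 knockdown, so that the knockdown libraries lay above 2 of the controls and below sh-Luci-3d replicate 3. Without that library the log2 difference was 0.83 and passed the threshold (limma adjusted p = 0.0300). The number of genes passing the threshold in this comparison then went from 5 to 986. With the correction of each library for G and C content and length, a correction chosen after seeing the data, no member passed.

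Between the day 3 knockdown and the day 7 knockdown, 4 of the 10 members rose at an adjusted p of 0.01 in limma and none fell, BID being the 1 lower member with an unadjusted p under 0.05. MCL1, BAK1, BCL2L11 and PMAIP1 were the ones that rose, by 1.62, 1.71, 2.07 and 1.38 times in mean FPKM. In all genes tested 20.3% rose and 15.5% fell at this threshold, and 14.2% passed it with a fold change above 2, which among the members held for BCL2L11 alone. The libraries of these groups did not overlap for 6 members and for 62.3% of all genes tested. The median log2 fold change of the members was 0.38, beside 0.09 over all genes. Against the day 3 control the same 4 members rose at an adjusted p of 0.01, where 20.6% of all genes rose, 15.0% fell, 14.6% passed with a fold change above 2 and 55.9% did not overlap. No member passed with a fold change above 2 in that comparison, and the libraries of 5 members did not overlap. Both comparisons use the same 3 libraries of the day 7 knockdown and are not independent.

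**Figure D1:**
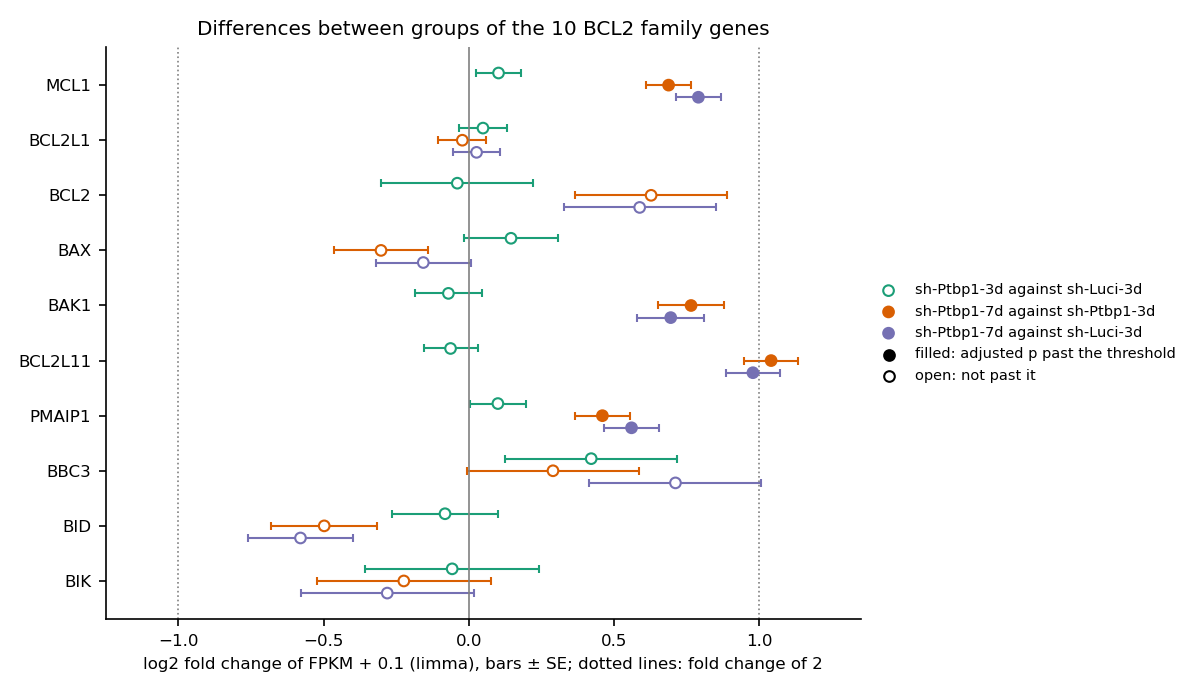
Log2 fold change of FPKM + 0.1 from limma (horizontal axis) for each of the 10 genes in the 3 comparisons, with bars of ± SE. Filled points passed the adjusted p threshold of their comparison (0.05 for the day 3 knockdown against the day 3 control, 0.01 for the others), and the dotted lines mark a fold change of 2. The filled points are those of MCL1, BAK1, BCL2L11 and PMAIP1 in the comparisons with the day 7 knockdown.

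Among the anti-apoptotic members, MCL1 (chr1:150574551-150579738, minus strand) was at 118, 113 and 98.7 FPKM in the day 7 knockdown, with a mean of 110.0 ± 10.2 FPKM against 68.1 ± 1.28 FPKM in the day 3 knockdown (SD, n = 3). Every 7-day library lay above every 3-day library. The log2 fold change was 0.69 (SE 0.079, limma adjusted p = 3.86e-05), and 0.79 against the day 3 control (adjusted p = 1.38e-05). BCL2L1 (chr20:31664452-31723989, minus strand), which encodes BCL-xL, was at 33.2, 33.8 and 39.1 FPKM in the day 3 control, 37.8, 36.6 and 35.1 FPKM in the day 3 knockdown and 36.2, 37.1 and 34.5 FPKM in the day 7 knockdown. The groups overlapped throughout, and the log2 difference of day 7 from day 3 was -0.02 with an interval of -0.20 to 0.16 (adjusted p = 0.843). MCL1 accordingly went from 1.87 ± 0.0706 times to 3.06 ± 0.204 times the level of BCL2L1 within a library.

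BCL2 (chr18:63123346-63320128, minus strand) was measured at 0.280, 0.415 and 0.265 FPKM in the day 3 control, 0.344, 0.227 and 0.353 FPKM in the day 3 knockdown and 0.533, 0.632 and 0.425 FPKM in the day 7 knockdown. The 7-day libraries lay above all others, if narrowly above sh-Luci-3d replicate 2. The log2 difference of 0.63 from the day 3 knockdown did not pass the threshold (SE 0.261, limma adjusted p = 0.0674), and a log2 value with 0.1 FPKM added understates the change of a gene at this level.

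Of the effectors, BAK1 (chr6:33572547-33580293, minus strand) was at 12.0, 12.3 and 15.3 FPKM in the day 3 control and 13.0, 11.5 and 13.0 FPKM in the day 3 knockdown. It was at 23.4, 21.4 and 19.3 FPKM in the day 7 knockdown, above every library of day 3. The log2 fold change from the day 3 knockdown was 0.77 (SE 0.115, limma adjusted p = 0.000273) and that from the day 3 control 0.70 (adjusted p = 0.000509). BAK1 has processed pseudogene copies in the genome, and how the authors' counting shared such reads is not given in the sources used here.

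BAX (chr19:48954815-48961798, plus strand) did not rise with it. BAX was at 42.9, 45.1 and 68.9 FPKM in the day 3 control, 59.9, 54.4 and 55.3 FPKM in the day 3 knockdown and 53.1, 44.0 and 41.1 FPKM in the day 7 knockdown. The 7-day libraries lay below those of the day 3 knockdown and among those of the day 3 control. The log2 difference was -0.30 from the day 3 knockdown (SE 0.163, limma adjusted p = 0.149) and -0.16 from the day 3 control (adjusted p = 0.454), and without sh-Luci-3d replicate 3 the latter was 0.06. Within a library BAK1 stood at 0.279, 0.272 and 0.222 of the BAX level in the day 3 control, 0.217, 0.211 and 0.235 in the day 3 knockdown, and 0.440, 0.485 and 0.470 in the day 7 knockdown. This ratio does not depend on how a library is scaled, and the 7-day libraries lay above the rest with a wide gap.

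Of the BH3-only members, BCL2L11 (chr2:111119378-111168447, plus strand) had the largest log2 fold change of the 10 in both comparisons with the day 7 knockdown, although without sh-Luci-3d replicate 3 that of BBC3 against the day 3 control was larger, at 1.12 beside 0.90. It was at 11.1, 11.2 and 9.36 FPKM in the day 3 control, 10.1, 10.5 and 9.56 FPKM in the day 3 knockdown and 21.2, 21.4 and 19.8 FPKM in the day 7 knockdown. The 7-day libraries formed a tight set far above both day 3 groups. The log2 fold change was 1.04 from the day 3 knockdown (SE 0.093, limma adjusted p = 6.57e-06) and 0.98 from the day 3 control (adjusted p = 1.01e-05), on either side of a fold change of 2. Over the alternatives the former ranged from 0.95 to 1.15, so whether BCL2L11 exceeds a fold change of 2 depended on the setting, and its adjusted p stayed at or below 0.000123.

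PMAIP1 (chr18:59899948-59904306, plus strand), which encodes NOXA, was at 9.33, 11.2 and 9.72 FPKM in the day 3 control, 11.2, 10.5 and 10.7 FPKM in the day 3 knockdown and 15.9, 13.8 and 15.0 FPKM in the day 7 knockdown. The 7-day libraries lay above the others. The log2 fold change was 0.46 from the day 3 knockdown (SE 0.095, limma adjusted p = 0.00229) and 0.56 from the day 3 control (adjusted p = 0.000626). The former missed the threshold without sh-Ptbp1-3d replicate 2 (adjusted p = 0.0118), sh-Ptbp1-3d replicate 3 (0.0104) or sh-Ptbp1-7d replicate 1 (0.0128).

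BBC3 (chr19:47220822-47232766, minus strand) was at 5.55, 4.52 and 3.89 FPKM in the day 7 knockdown, overlapping both day 3 groups. Its log2 difference was 0.29 from the day 3 knockdown (SE 0.296, limma adjusted p = 0.443) and 0.71 from the day 3 control (adjusted p = 0.0677). Without sh-Luci-3d replicate 3 the latter was 1.12 and passed (adjusted p = 0.000582).

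BID (chr22:17734138-17774770, minus strand) went the other way in 2 of the 3 libraries of day 7. It was at 7.63, 8.94 and 8.14 FPKM in the day 3 control, 8.36, 7.96 and 7.04 FPKM in the day 3 knockdown and 4.80, 4.42 and 7.71 FPKM in the day 7 knockdown, where replicate 3 stayed at the level of day 3. The log2 difference from the day 3 knockdown was -0.50 and did not pass the threshold (SE 0.182, limma adjusted p = 0.0413). Without sh-Ptbp1-7d replicate 3 it was -0.74 (adjusted p = 0.000837), and that from the day 3 control -0.82 (adjusted p = 0.000443). BIK (chr22:43110748-43129712, plus strand) was between 0.390 and 0.852 FPKM in all 9 libraries, and its groups overlapped in each comparison.

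The balance of the family was taken within each library as the summed FPKM of the 7 pro-apoptotic members over that of the 3 anti-apoptotic members, a description without a test. The ratio was 0.986 ± 0.131 in the day 3 control and 0.973 ± 0.0415 in the day 3 knockdown (SD, n = 3). The control libraries were at 0.883, 0.942 and 1.13, the last being sh-Luci-3d replicate 3, so the mean near 1 in the control rested on that library. In the day 7 knockdown the ratio was 0.778 ± 0.0432, and the 3 libraries of that group lay below the 6 others. Both sums were larger at day 7 than in the day 3 knockdown: the anti-apoptotic sum went from 104.9 ± 1.96 to 146.5 ± 11.4 FPKM and the pro-apoptotic sum from 102.1 ± 4.56 to 113.9 ± 9.22 FPKM. On the log2 scale the balance differed by -0.32 between the day 7 knockdown and the day 3 knockdown, by -0.33 between the day 7 knockdown and the day 3 control and by -0.01 between the day 3 groups. Without sh-Luci-3d replicate 3 the last 2 were -0.23 and 0.09, and the libraries of the day 3 groups still overlapped.

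The sign of that balance rested on 2 genes. MCL1 made up 32.9% of the summed FPKM of the 10 members in the day 3 knockdown and 42.2% in the day 7 knockdown, and BAX 27.3% and 17.6%. Without MCL1 the balance of day 7 against the day 3 knockdown was 0.17, without BAX 0.10, and without both 0.59, each with the opposite sign, though without BAX the libraries of the groups overlapped. Against the day 3 control the corresponding values were 0.19, 0.0075 and 0.53, and the libraries overlapped without MCL1 alone and without BAX alone. The definitions without MCL1 alone and without BAX alone were added after seeing the data. The mean of log2 values was also taken in place of sums. Each gene then had equal weight within its side, and BCL2, near the bottom of the measured range, counted as much as MCL1. With these means the difference was -0.21 from the day 3 knockdown and -0.19 from the day 3 control. The libraries of the groups overlapped in both. With the 7 other family genes added to the sums (BCL2L2, BCL2A1, BCL2L10, BOK, BAD, BMF and HRK), the difference from the day 3 knockdown was -0.47. The log2 balance itself was 0.52 in the day 3 control, 0.45 in the day 3 knockdown and -0.02 in the day 7 knockdown. BAD among them had means of 58.6, 56.2 and 43.0 FPKM in these groups. MCL1 and BAX were left out of the sum of the 10 members alone, and not of the wider sum. Among the sums tried, the lower balance at day 7 held for those that include both. Only the sum without both had the opposite sign with no overlap in either comparison.

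**Figure D2:**
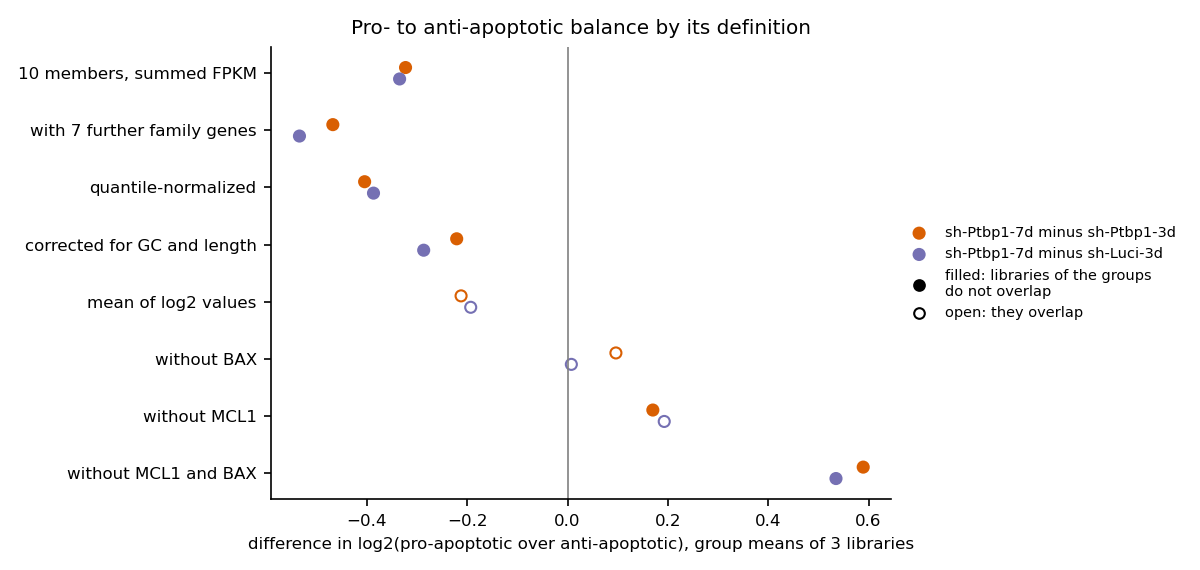
Difference in log2 of the pro- over the anti-apoptotic level (horizontal axis) between the day 7 knockdown and each day 3 group, for 8 definitions of the balance. Filled points mark definitions in which the libraries of the compared groups did not overlap. Sums that contain both MCL1 and BAX lie left of 0, and sums that leave out 1 or both of them lie right of it.

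Ratios between the members of known pairs moved in both directions. BCL2L11 over BCL2L1, BIM against BCL-xL, was 0.302 ± 0.0539 in the day 3 control, 0.276 ± 0.0107 in the day 3 knockdown and 0.579 ± 0.00638 in the day 7 knockdown, with every 7-day library above the rest. BCL2L11 over MCL1 was 0.166 ± 0.0178, 0.148 ± 0.00490 and 0.190 ± 0.0108, above the day 3 knockdown in every library and overlapping the day 3 control. PMAIP1 over MCL1, NOXA against its main partner, was 0.159 ± 0.0181, 0.159 ± 0.00731 and 0.136 ± 0.0152, and the groups overlapped. The effectors BAX and BAK1 over MCL1 and BCL2L1 went from 0.661 ± 0.0361 in the day 3 knockdown to 0.461 ± 0.0308 in the day 7 knockdown, below every library of day 3. The 5 BH3-only members over the 3 anti-apoptotic members stood at 0.329 ± 0.0162, 0.315 ± 0.0111 and 0.319 ± 0.0296, and all groups overlapped.

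Other genes of the family, and genes linked to it, were given by fixed lists. Of 63 listed genes tested, not all of which are reported here, none passed the threshold in limma at day 3 of the knockdown, where 6 had an unadjusted p under 0.05. The calls below are of the day 7 knockdown against the day 3 knockdown, where 20.3% of all genes tested rose and 15.5% fell. Of the other anti-apoptotic genes only BCL2L2, which encodes BCL-w, was expressed enough to be tested, at 12.1 and 13.1 FPKM in these groups, and it did not pass. BOK, a further effector, fell from 1.16 ± 0.162 to 0.545 ± 0.109 FPKM (log2 fold change -0.98, limma adjusted p = 0.00240). Of the BH3-only genes BAD and BMF, BMF fell from 0.818 ± 0.231 to 0.296 ± 0.101 FPKM (log2 fold change -1.22, limma adjusted p = 0.00520) and BAD did not pass. BOK missed the threshold in 1 of 20 alternatives and BMF in 6 of 20. A further list held 7 tested genes, divergent relatives or genes named for an interaction with BCL2, not all of them family members. Of these BCL2L13 rose and BCL2L12, BNIP3, BNIP3L and BCLAF1 fell, with none past a fold change of 2. The median log2 fold change of the 7 was -0.45, beside 0.09 over all genes tested. BCLAF1 missed the threshold in 8 of 21 alternatives, BNIP3L in 7 and BCL2L12 in 1.

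Downstream of the family, the mitochondrial gate and its released factors moved both ways: of 10 genes, CYCS (cytochrome c), DIABLO, HTRA2 and MOAP1 rose and VDAC1, VDAC3, AIFM1 and MTCH2, a mitochondrial receptor of BID, fell, none by more than a fold change of 2. CYCS missed the threshold in 8 of 21 alternatives, HTRA2 and VDAC3 in 9 and VDAC1 in 6. Of 7 genes for MCL1 turnover, the ubiquitin ligase HUWE1 (log2 fold change -0.51) and the deubiquitinase USP13 (-0.63) fell, and the ligase genes MARCHF5 (0.44) and BTRC (0.56) rose. HUWE1 missed the threshold in 9 of 21 alternatives and USP13 in 5. The median log2 fold change of these 2 lists was -0.12 and 0.09, beside 0.09 over all genes tested.

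Of 10 transcription factors known to act on family genes, 5 rose and 2 fell, where 20.3% of all genes tested rose and 15.5% fell. The median log2 fold change of the 10 was 0.24, beside 0.09 over all genes tested. FOXO1 rose from 1.75 ± 0.142 to 6.56 ± 0.498 FPKM (log2 fold change 1.85, limma adjusted p = 7.02e-07). Its relative FOXO3, at a higher level than FOXO1 in both groups, fell from 28.8 ± 1.94 to 11.4 ± 1.50 FPKM (log2 fold change -1.33, limma adjusted p = 2.36e-06). DDIT3, which encodes the stress factor CHOP, rose from 23.5 ± 1.83 to 61.2 ± 1.22 FPKM (log2 fold change 1.38, limma adjusted p = 2.78e-06). TP73, ATF4 and RELA rose and E2F1 fell by less, RELA missing the threshold in 11 of 21 alternatives. Factor mRNA levels do not give their activity.

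Genes whose values followed 8 of the members most closely, BCL2 and BIK being too low to be included, over the 9 libraries were found among 11340 genes by Pearson's r of log2(FPKM + 0.1), as a description, since the 9 values fall into groups. They were CALCRL, SUCO and PCMTD2 for BCL2L11 (r from 0.997 to 0.998), MEX3C, ZCCHC2 and GOLM1 for MCL1 (0.994 to 0.995), CYTH1, CRELD2 and SLC39A7 for BAK1 (0.987 to 0.990), and H2BC15 and PIGG for PMAIP1 (0.979 to 0.984). For BAX they were MEA1, VPS4A and SRSF9 (0.967 to 0.981), for BBC3 MXD4, ZNF787 and SRF (0.979 to 0.985), for BCL2L1 NDUFV1, TIMM29 and POMGNT1 (0.949 to 0.962) and for BID MPDU1, SNX3 and RTL8A (0.951 to 0.970). None of the 8 was among the 3 nearest of another.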

How the data were processed

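RNA of U251 cells was sequenced on Illumina HiSeq in 9 libraries, 3 per group, and groups were taken from the labels (sh-Luci-3d the day 3 control, sh-Ptbp1-3d and sh-Ptbp1-7d the day 3 and day 7 knockdown). The authors filtered the reads, aligned them and deposited FPKM values per gene and library, 22295 rows of which 2363 are assembled loci. The submitters' processing notes name HISAT2 and GRCh38, and the counting program and gene annotation are not given in the sources used here. The authors also deposited coordinates of the assembled loci, another kind of value, used here only to see that no assembled locus overlaps a member. Whole reads could not be recovered from FPKM, so no count test was used.

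Rows with a mean of at least 0.1 FPKM (15551) were fitted as log2(FPKM + 0.1) with limma 3.58.1 in R 4.3.3, 9 libraries in one model of 3 groups with an intensity trend, with Benjamini-Hochberg adjustment over all rows tested. Fold changes on this scale understate those of low genes. The study used a fold change above 2 with an FDR of 0.05 for the day 3 knockdown against the day 3 control and 0.01 for the day 7 against the day 3 knockdown. Here the FDR was also used alone, and 0.01 was used for the day 7 knockdown against the day 3 control. With 3 libraries against 3, an exact two-sided permutation test of a single gene cannot go below 0.1. All members were named, and of the other lists the genes past both thresholds and those a result turned on. The members and gene lists were chosen with earlier results of these data known. Some of the listed genes are not reported here. The fit was tested on simulated data. Same-numbered libraries did not deviate together (r from -0.03 to 0.05 over genes), and the main model did not pair them. These values cannot show whether the libraries were prepared in pairs. Gene positions are from GENCODE v29, upstream sequences from RefSeq. Python 3.11.15 and matplotlib 3.10.9 made the figures.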

Additional observations from a re-analysis of the deposited data

How the results depend on the processing

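The settings varied were the pseudocount (1 or 0.01), the filter (none, or a mean of 1 FPKM), the scaling (TPM, median-ratio or quantile), the rows kept (assembled loci and mitochondrial genes removed), the libraries (only the compared groups, or all but 1) and the model (without a trend, or with replicate number as a block). A correction for G and C content and length was chosen after seeing the data. MCL1, BAK1 and BCL2L11 in both comparisons with the day 7 knockdown, and PMAIP1 against the day 3 control, passed in all 21 alternatives, as did FOXO1, FOXO3 and DDIT3. With the replicate block the same numbers of members passed as without it: 0 at day 3 and 4 in each comparison with the day 7 knockdown.

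The count of members past both thresholds between the day 7 knockdown and the day 3 knockdown, 1 as reported, was 0 with a pseudocount of 1, median-ratio scaling or quantile normalization, where BCL2L11 lay just under a fold change of 2. Against the day 3 control it was 1 in place of 0 under TPM, and 0 to 1 on leaving out single libraries. The count past the adjusted p alone at day 3 was likewise 0 to 1, the 1 being BBC3 without sh-Luci-3d replicate 3. TPM moved the median log2 fold change of all genes between the day 7 knockdown and the day 3 knockdown from 0.09 to 0.20. Relative to that median MCL1 was at 0.60 before and 0.59 after, and BCL2L11 at 0.95 in both.

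The balance of the day 7 knockdown against the day 3 knockdown, -0.32 as reported, was -0.21 with means of log2 values, -0.47 with all measured family genes, -0.40 with quantile normalization, -0.22 with the correction for G and C content, 0.17 without MCL1, 0.10 without BAX and 0.59 without both. Against the day 3 control, -0.33 as reported, it was -0.19 with means of log2 values, -0.53 with all measured family genes, 0.19 without MCL1, 0.0075 without BAX and 0.53 without both. Leaving out single libraries gave -0.35 to -0.28 and -0.41 to -0.23.

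Uncalled members changed sign as follows. BCL2 in the day 3 comparison was 0.0078 with the correction for G and C content and lay between -0.13 and 0.12 on leaving out single libraries. So did BAK1 (-0.13 to 0.040) and BIK (-0.31 to 0.15), the high values of both coming without sh-Luci-3d replicate 3. BCL2L1 between the knockdown groups was 0.079 under TPM and -0.050 to 0.0070 without single libraries, and BIK -0.39 to 0.0091. Against the day 3 control BCL2L1 was -0.073 with median-ratio scaling, and without single libraries it ranged from -0.017 to 0.1 and BAX from -0.28 to 0.059. The cause of these changes was not tested. Depth is unknown, so what it limits at the levels of BCL2 and BIK could not be given.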
